A study of Homo sapiens with 4 samples.

Results

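Measurements of 10 enzymes of serine synthesis, the folate-bound transfer of single carbon units and transsulfuration were taken from HEK293 cells: PHGDH, PSAT1, PSPH, SHMT1, SHMT2, MTHFD1, MTHFD2, MTHFD1L, CBS and CTH. HEK293 is an established, adherent human embryonic kidney line. Members were all probe sets of the array whose annotation lists exactly 1 symbol and that symbol is 1 of these 10 genes. The 10 genes, of 19775 with such a probe set, had 22 of the 54675 probe sets, 41097 of which carry 1 symbol. The rule itself goes by gene names, but these genes were selected on earlier results of the same arrays: their signals, their LPA-minus-untreated differences and their differences between replicate numbers. These differences are therefore given as descriptions, and no test of the members is used as support.

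The study set 2 arrays of cells stimulated for 2 h with 1 µM lysophosphatidic acid (LPA, a signalling lipid of serum with its own G protein-coupled receptors) against 2 arrays of untreated cells. The labels put replicate numbers 1 and 2 in each group. All cells were grown with fetal bovine serum and kept overnight in serum-free medium, per the labels' protocols, so both groups share the serum withdrawal. Untreated arrays are titled Vc, an abbreviation left unexplained, and the labels state neither whether a replicate is a separate culture nor what a shared number marks. The p-values below thus rest on these 4 arrays only, whose spread may be technical. The program that gave them, limma, moderates each probe set's spread towards that of probe sets of like signal. These p-values and the standard errors therefore do not measure a probe set's own spread alone.

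Cells make serine from an intermediate of glycolysis in the steps of PHGDH, PSAT1 and PSPH. SHMT1 in the cytosol and SHMT2 in mitochondria split serine into glycine and a carbon unit carried by tetrahydrofolate, which MTHFD2, MTHFD1L and MTHFD1 pass on for purine and thymidylate synthesis. CBS joins serine to homocysteine, and CTH cleaves the product, cystathionine, to release cysteine, a building block of glutathione. Several of these genes are known targets of ATF4, a transcription factor of the response to amino acid shortage.

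Signals are MAS5 intensities on a linear scale, scaled array by array before deposit (trimmed mean 500.1 on all 4 arrays), and they measure RNA per array, so a change in how many cells express a gene and in RNA per cell cannot be told apart. Levels of different probe sets are not comparable, and brightest or dimmest only names a probe set by its mean signal. LPA replicate 2 stood apart in its maximum, 62508, where the other LPA array reached 93776 and the untreated ones 97077 and 104012. Its ratio of 3′ to 5′ ACTB probe sets was 18.8, against 12.6 to 13.6 on the other arrays. Of 8 markers of the line, 7 passed the filter on low signals, among them VIM, NEFL, NEFM and KRT18, while LHX1 did not. PAX2 passed as well, but read only 93.6 to 136. Of 8 markers of other cell types, PTPRC, CD3E, ALB, CDH5 and KRT5 lay below that filter, and PECAM1, COL1A2 and DCN read at most 130 on any array.

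The filter kept probe sets whose mean log2(signal + 1) over the 4 arrays was at or above the 40th percentile, a signal of 47.1. It kept 18 of the 22 member probe sets, which cover 9 genes. The 4 others are 1 of SHMT1, 1 of MTHFD1 and both of MTHFD1L. For MTHFD1L, the mitochondrial enzyme that releases formate, probe set 1561125_at read 42.1 and 41.9 in LPA cells and 28.4 and 51.6 in untreated cells. Its other probe set read 6.04 and 54.6 in LPA cells and 53.3 and 34.5 in untreated cells, so neither is shown to be above background and both overlap between groups. The dim MTHFD1 probe set read 3.57 and 51.5 in LPA cells and 31.8 and 32.0 in untreated cells, and that of SHMT1 read 6.37 and 24.3 in LPA cells and 47.7 and 38.9 in untreated cells, where both LPA values of SHMT1 were the lower ones. Another 5 probe sets list a member together with other symbols, passed the filter and were not used, since their signal cannot be given to 1 gene. The 2 that list MTHFD1L read 794 to 937 and 4090.2 to 4906, and the 2 that list SHMT1 read 295 to 501 and 1530.0 to 1689, so the low values above do not show that either gene is silent. For SHMT1, the cytosolic serine hydroxymethyltransferase, the remaining probe set with 1 symbol read 113 and 126 on LPA replicates 1 and 2, against 163 and 47.1 on untreated replicates 1 and 2, and the untreated arrays enclosed both LPA values.

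The regions before the annotated starts are shown for 4 genes whose brightest probe set read higher on both number 2 arrays than on both number 1 arrays, as described further on. Each line holds the 250 bases before the start in RefSeq's GRCh38.p14, and capitals mark CCAAT, on either strand. SHMT2 and PSPH had no entry in the table used.
CTH, chr1:70411018-70411267, plus strand: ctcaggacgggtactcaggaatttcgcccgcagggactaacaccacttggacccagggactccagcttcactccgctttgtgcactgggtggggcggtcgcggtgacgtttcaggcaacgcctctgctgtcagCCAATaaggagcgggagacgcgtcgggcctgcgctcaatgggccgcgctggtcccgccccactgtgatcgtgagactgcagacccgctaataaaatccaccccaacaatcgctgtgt
PHGDH, chr1:119711684-119711933, plus strand: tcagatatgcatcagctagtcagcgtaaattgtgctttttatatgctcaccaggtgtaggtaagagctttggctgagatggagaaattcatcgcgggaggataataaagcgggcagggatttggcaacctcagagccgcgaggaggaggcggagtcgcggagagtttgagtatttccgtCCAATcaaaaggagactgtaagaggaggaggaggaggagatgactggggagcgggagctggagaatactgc
PSAT1, chr9:78296875-78297124, plus strand: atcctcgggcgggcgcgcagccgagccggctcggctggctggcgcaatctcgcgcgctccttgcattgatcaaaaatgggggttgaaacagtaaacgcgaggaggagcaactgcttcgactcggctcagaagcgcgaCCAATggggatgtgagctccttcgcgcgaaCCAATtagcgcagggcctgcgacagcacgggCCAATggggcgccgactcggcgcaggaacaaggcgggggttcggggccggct
MTHFD2, chr2:74198365-74198614, plus strand: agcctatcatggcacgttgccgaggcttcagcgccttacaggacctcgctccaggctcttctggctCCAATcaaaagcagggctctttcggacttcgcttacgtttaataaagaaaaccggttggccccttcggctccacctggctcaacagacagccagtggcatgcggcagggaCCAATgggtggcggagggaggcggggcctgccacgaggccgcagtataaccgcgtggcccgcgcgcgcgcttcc
The 3 motifs were searched on both strands in windows of 300 bases, which add the first bases of the transcript, and none of the 3 overlapped another where it matched. CCAAT, the box bound by NF-Y, was found for all 8 member genes in the table (11 of their 13 windows), and for 39.7% of all 27305 genes (34.6% of all 35116 windows). Windows of 1 gene can overlap and hold the same site, so the genes are the count to read. In the CTH line its first base lies 117 bases before the start, that of PHGDH at 71, that of PSAT1 at 113, 83 and 52, and that of MTHFD2 at 184 and 74. TGATGNAA, the core of the element that ATF4 binds with a C/EBP partner, was found for 1 of the 8, MTHFD1L, and for 4.46% of all genes (3.62% of windows). CACGTG, the E-box, was found for 2 of the 8, MTHFD1 and MTHFD1L, and for 8.77% of all genes (7.26% of windows). A match is a description of the letters, and no match speaks only of this window.

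The study's own comparison asks what LPA does to transcript levels within 2 h. For most of these enzymes the group means lay close together. Of the 18 member probe sets, 12 had a mean log2 difference within 0.1 of 0, their median was 0.01, and the median over all 24658 probe sets tested was also 0.01. In limma, 0 of the 18 passed the threshold (adjusted p under 0.05), as did 0.0% of all probe sets. An unadjusted limma p under 0.05 was given to 541 of all probe sets (2.19%) and to 2 of the 18. The median size of the difference, without its sign, was 0.06 for the members and 0.18 for all, with median standard errors (SE) of 0.21 and 0.29.

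**Figure D1:**
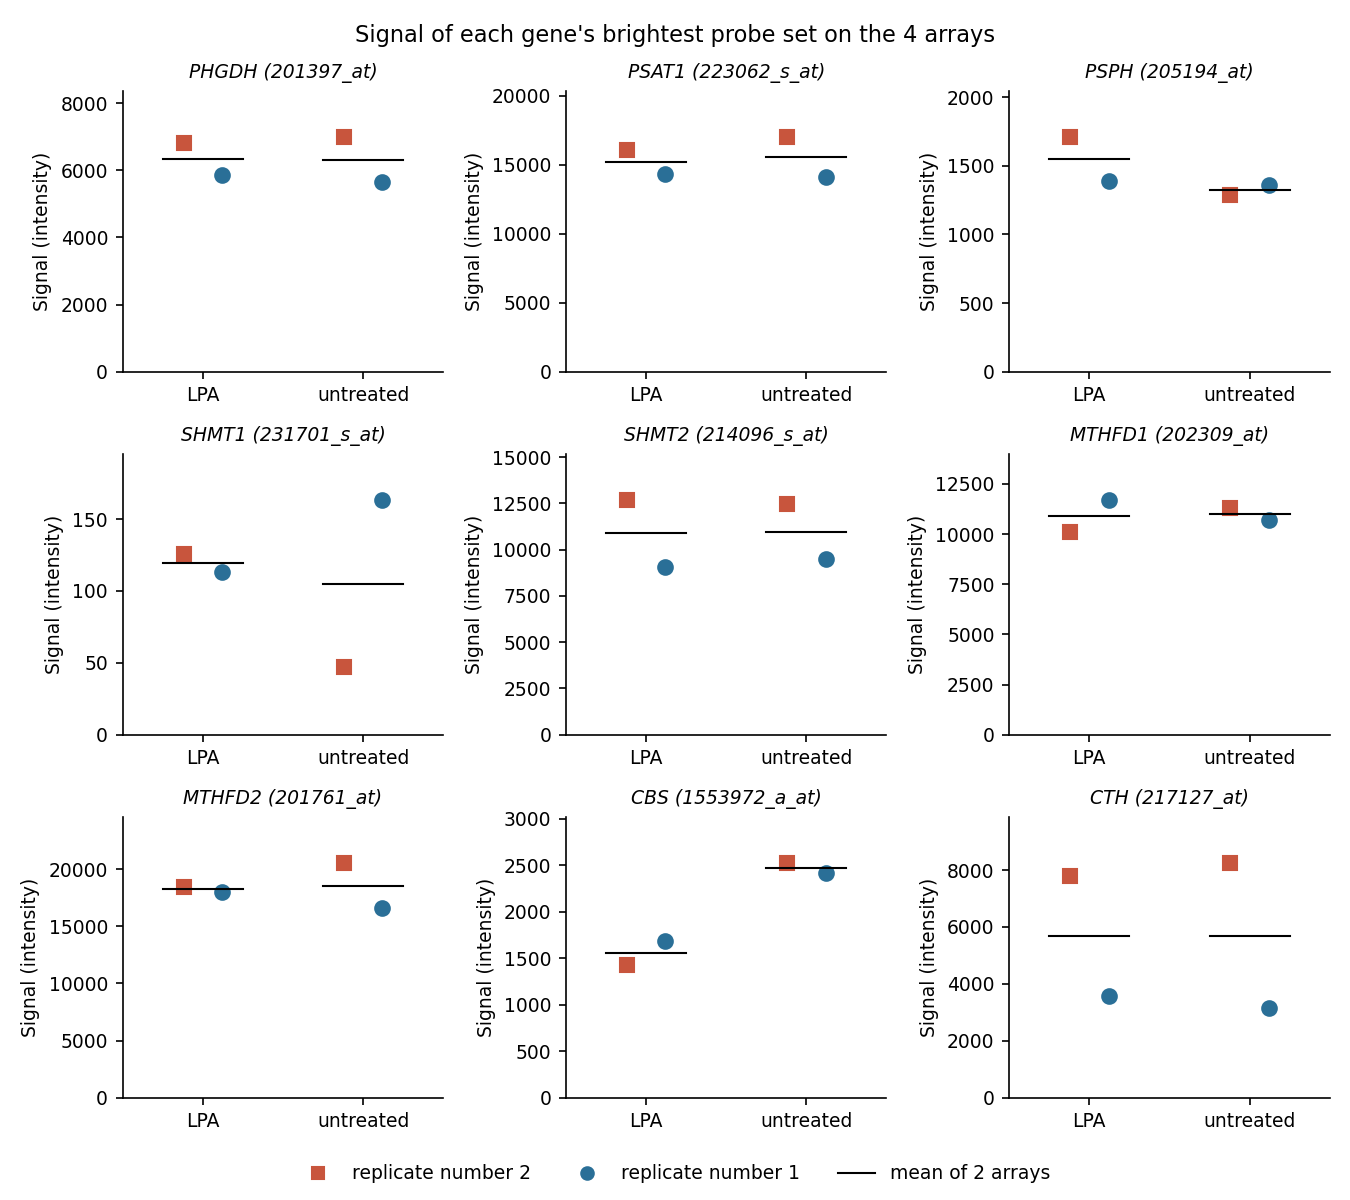
Signal (intensity, linear axis from 0) of the brightest filtered probe set of 9 genes, with LPA arrays left and untreated arrays right. Squares are replicate number 2, circles number 1 and lines the mean of 2 arrays. CTH and SHMT2 split by number, with 7790 and 8234 against 3562 and 3142 for CTH, and so do PHGDH, PSAT1 and MTHFD2 with smaller gaps. The CBS probe set splits by treatment, with 1680.0 and 1426 in LPA cells against 2418 and 2518 in untreated cells. The PSPH probe set also splits by treatment, with higher values in LPA cells.

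In the serine synthesis steps, PHGDH, the dehydrogenase that opens the route, read 5866 and 6816 on LPA replicates 1 and 2, against 5664 and 6984 on untreated replicates 1 and 2. The LPA values lay inside the untreated range, and the log2 difference was 0.0078 ± 0.17 (SE, 2 arrays per group). PSAT1, the aminotransferase of the next step, read 14339 and 16078 in LPA cells and 14101 and 16996 in untreated cells at its brighter probe set, a log2 difference of -0.03 ± 0.16. Its other probe set gave 0.07 ± 0.22, with overlapping groups as well. PSPH, the phosphatase that releases serine, read 1393 and 1707 in LPA cells and 1358 and 1284 in untreated cells at its brightest probe set. Both LPA values were the higher ones, by 0.22 ± 0.19 on the log2 scale, 0.04 within number 1 and 0.41 within number 2. The other PSPH probe sets did not share this: they differed by 0.05 ± 0.26 and -0.23 ± 0.44, with overlap between groups in both.

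In the folate steps, the mitochondrial hydroxymethyltransferase SHMT2 had 3 probe sets with log2 differences of -0.02, -0.02 and 0.02. The brightest read 9084 and 12665 in LPA cells and 9488.5 and 12444 in untreated cells, so the arrays of a group were far further apart than the groups. MTHFD1, the cytosolic enzyme that interconverts folate forms, read 11679 and 10077.5 in LPA cells and 10685 and 11314 in untreated cells, a log2 difference of -0.02 ± 0.16. MTHFD2, its mitochondrial relative, read 17998 and 18434 in LPA cells and 16548 and 20495.5 in untreated cells. Its log2 difference was -0.02 ± 0.16, and that of its dimmer probe set -0.07 ± 0.26. The SHMT1 probe set that passed the filter, with the signals given above, had a log2 difference of 0.44 ± 0.59. It was -0.52 within number 1 and 1.4 within number 2. No folate-cycle member probe set that passed the filter separated the groups. Probe sets 225520_at and 231094_s_at, which list MTHFD1L with other symbols and were not used, did so in opposite directions. The former read 4090.2 and 4457.4 in LPA cells, against 4465.5 and 4905.8 in untreated cells. The latter read 926 and 937 in LPA cells, against 794 and 884 in untreated cells.

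CBS, which begins transsulfuration, had 2 probe sets that separated the groups, in opposite directions. Probe set 1553972_a_at read 1680.0 and 1426 in LPA cells, against 2418 and 2518 in untreated cells. Both LPA values were the lower ones, and the log2 difference was -0.67 ± 0.18, with -0.53 within number 1 and -0.82 within number 2. Probe set 212816_s_at read 1737 and 2136 in LPA cells and 1769.9 and 1886 in untreated cells. Its groups overlapped and its log2 difference was 0.08 ± 0.18. The dim probe set 240517_at read 167 and 276 in LPA cells, against 119 and 76.0 in untreated cells, a log2 difference of 1.17 ± 0.42. Over the alternative settings these differences took values of -0.79 to -0.55, -0.07 to 0.23 and 0.81 to 1.53. The files do not say which part of the transcript a probe set reads, and the difference between the probe sets was not tested. CTH, which completes the route, read 3562 and 7790 in LPA cells and 3142 and 8234 in untreated cells at its brighter probe set. Its groups overlapped, and the log2 difference was 0.05 ± 0.45. The dimmer CTH probe set gave 0.23 ± 0.41.

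**Figure D2:**
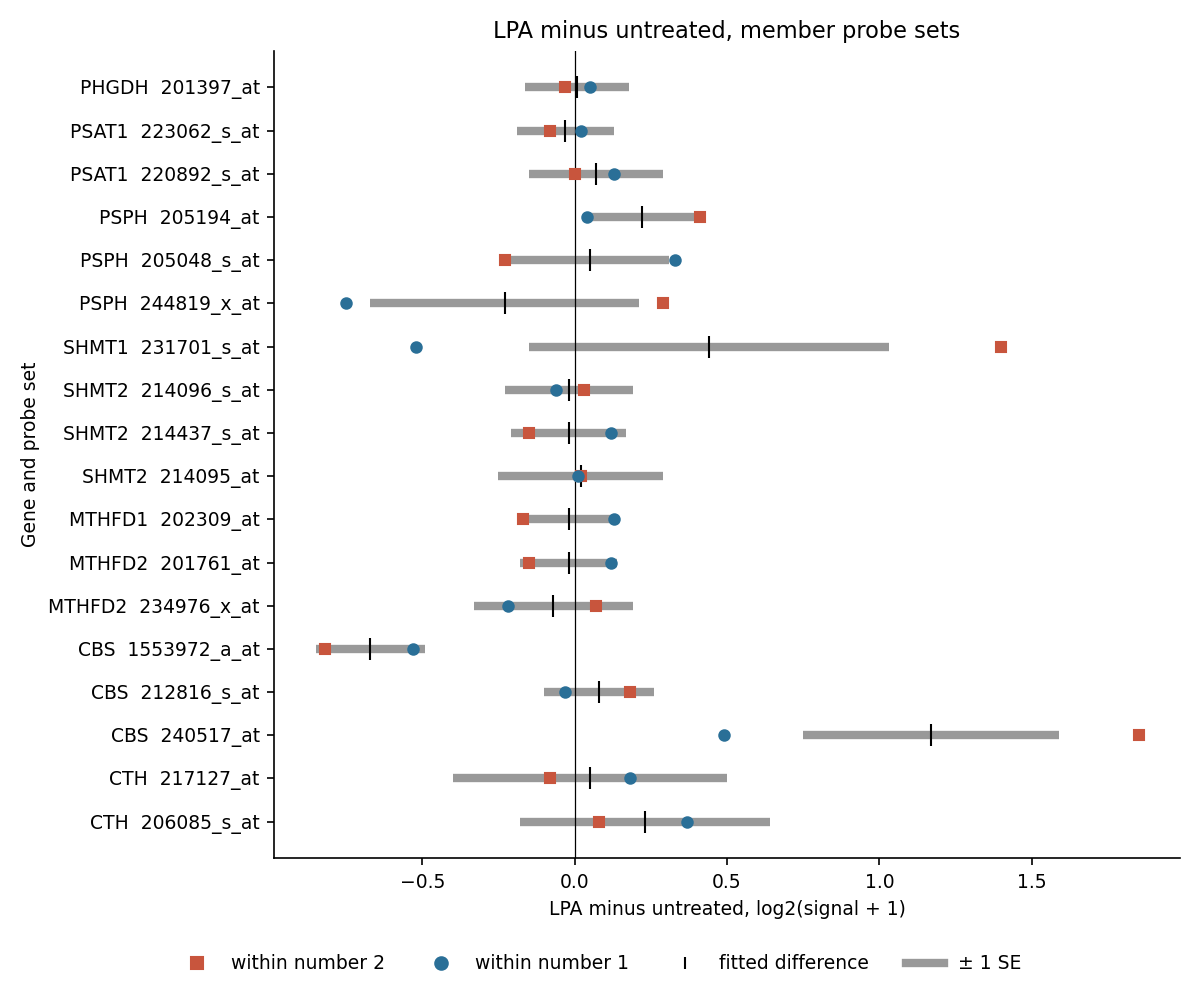
LPA minus untreated on the log2(signal + 1) scale for the 18 member probe sets that passed the filter. Squares are the difference within replicate number 2, circles within number 1, ticks the fitted difference and grey bars 1 SE to each side. CBS holds both the lowest value, -0.67, and the highest, 1.17, and 12 probe sets lie within 0.1 of 0.

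Groups did not overlap for 2 member probe sets with higher LPA values (PSPH 205194_at and CBS 240517_at), where 15.4% of all probe sets did the same, and for 1 with lower values (CBS 1553972_a_at), where 13.5% did. The sign was the same within both replicate numbers for 5 of the 18, a description with no share over all probe sets to set beside it. The median over the 18 was 0.04 within number 1 and 0.01 within number 2. No member probe set outside CBS and PSPH separated the groups among those that passed the filter.

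The members lay further apart between the replicate numbers than between treatments, and so did all probe sets. The median size of the log2 difference, without its sign, was 0.27 between numbers and 0.06 between treatments for the 18 probe sets. Over all probe sets it was 0.25 between numbers and 0.18 between treatments. This contrast, number 2 minus number 1, was fitted with the treatment as a term, and it answers no question of the study. CTH had the widest gap: its brighter probe set read 7790 on LPA replicate 2 and 8234 on untreated replicate 2, against 3562 on LPA replicate 1 and 3142 on untreated replicate 1. Number 2 was 2.19-fold higher among LPA arrays and 2.62-fold higher among untreated arrays, and the fitted log2 difference was 1.26 ± 0.13. The dimmer CTH probe set read 1827 and 1725 on the number 2 arrays, LPA array first, against 961 and 742 on the number 1 arrays, a log2 difference of 1.07 ± 0.14. In both probe sets all number 2 values lay above all number 1 values, with LPA and untreated arrays of a number close to each other. The SE of the brighter CTH probe set was 0.13 here and 0.45 in the LPA comparison, whose model does not hold the number.

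SHMT2 also read higher on the number 2 arrays, at all 3 of its probe sets. Probe set 214095_at read 2294 and 2258 on the number 2 arrays (LPA, then untreated), against 1489 and 1475 on the number 1 arrays, a log2 difference of 0.62 ± 0.13. The brightest one, 214096_s_at, differed by 0.44 ± 0.14 and the remaining one by 0.27 ± 0.12. None of the 3 overlapped between the numbers. Of the serine synthesis enzymes, PHGDH and PSAT1 had smaller gaps in the same direction. PHGDH read 6816 and 6984 on the number 2 arrays, against 5866 and 5664 on the number 1 arrays, a log2 difference of 0.26 ± 0.13. The 2 PSAT1 probe sets differed by 0.22 ± 0.15 and 0.27 ± 0.15. PSPH was mixed, at 0.11, 0.30 and -0.53 from its brightest to its dimmest probe set. The last 2 values came from the untreated arrays, which differed by 0.58 and -1.05, while the LPA arrays differed by 0.02 and -0.01.

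In the remaining folate steps the brighter MTHFD2 probe set read 18434 and 20495.5 on the number 2 arrays, against 17998 and 16548 on the number 1 arrays. Its log2 difference was 0.17 ± 0.16, most of it between the untreated arrays (0.31) rather than the LPA arrays (0.03). The dimmer MTHFD2 probe set did not share this: it differed by -0.04 ± 0.25, with overlap between the numbers. MTHFD1 differed by -0.07 ± 0.14 and overlapped. CBS differed by -0.09 ± 0.13 at 1553972_a_at and 0.19 ± 0.13 at 212816_s_at. Its dim probe set 240517_at gave 0.04 ± 0.42, from opposite differences of 0.72 between the LPA arrays and -0.64 between the untreated arrays. SHMT1 differed by -0.81 ± 0.52, with its low value of 47.1 on untreated replicate 2. The fitted differences of the transsulfuration enzymes were near 1 log2 unit for both CTH probe sets, and at most 0.19 for the CBS ones.

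**Figure D3:**
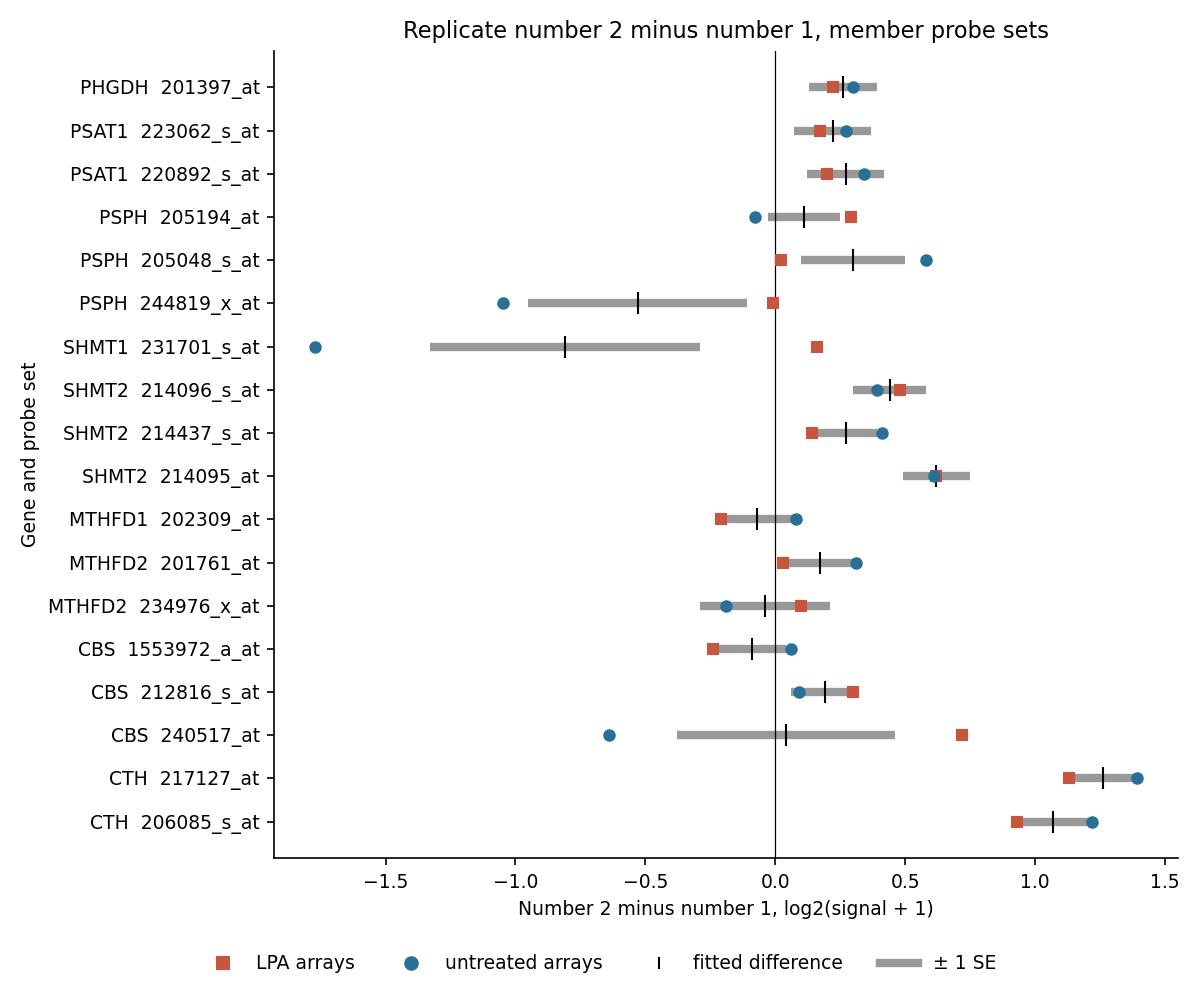
Replicate number 2 minus number 1 on the log2(signal + 1) scale for the 18 member probe sets that passed the filter. Squares are the difference between the LPA arrays, circles between the untreated arrays, ticks the fitted difference and grey bars 1 SE to each side. Both CTH probe sets lie near or above 1 and all 3 SHMT2 probe sets above 0 in both treatments.

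Of the 18 member probe sets, 11 had both number 2 values above both number 1 values, as did 23.9% of all probe sets, and 1 had both below, as did 22.4%. The members' median log2 difference was 0.21 and that of all probe sets 0.01. Without CTH and SHMT2 the median of the other 13 was 0.11. In limma, 3 of the 18 passed the threshold, all higher (both CTH probe sets and SHMT2 214095_at), where 2.55% of all probe sets passed as higher, 3.03% as lower and 5.58% in either direction. An unadjusted limma p under 0.05 was given to 18.5% of all probe sets and to 5 of the 18. Since these differences were known when the members were chosen, nothing is read from these counts. The ACTB 3′-to-5′ ratio was 18.8 and 12.6 on the number 2 arrays (LPA, then untreated), against 13.6 and 13.4 on the number 1 arrays. The summed signal of the other-cell markers was 242.8 and 441.1, against 282.2 and 280.7. The part of these measures in the result was not tested.

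Other genes of the pathway were taken from 4 lists with 76 genes, of which 65 had a brightest probe set with 1 symbol that passed the filter. In the LPA comparison 0 of the 65 passed in limma, and 1 had an unadjusted p under 0.05. That gene was SFXN3, a relative of the mitochondrial serine carrier SFXN1, which read 697 and 539 in LPA cells, against 404 and 291 in untreated cells. Its log2 difference was 0.84 ± 0.27 with limma adjusted p = 1.0 after rounding, and its other probe sets gave 0.03 and 0.14. The list medians were -0.03 for folate and glycine metabolism, 0.02 for methionine and glutathione, 0.04 for serine use and transport and 0.03 for regulators and stress targets. ATF4 read 41079 and 31265 in LPA cells and 44119 and 49420.5 in untreated cells, a log2 difference of -0.38 ± 0.18 that did not pass. It was -0.15 under quantile normalization, and -0.18 without LPA replicate 2 and -0.58 without LPA replicate 1. Smaller p-values within their lists also belonged to CDO1 (-0.89 ± 0.54), a cysteine-degrading enzyme, and the sulfide-oxidising SQOR (0.55 ± 0.43). Among the stress genes they belonged to NUPR1 (0.93 ± 0.54) and SESN2 (0.44 ± 0.27), and none passed the threshold. Signals of CDO1, SQOR and NUPR1 were low. CDO1 read 85.1 and 48.6 on LPA replicates 1 and 2, against 85.1 and 170 on untreated replicates 1 and 2. Over the arrays SQOR read 72.1 to 122 and NUPR1 40.8 to 113. The others named by the same rule were ALDH1L2 (0.27 ± 0.30), MTHFD2L (-0.15 ± 0.17), the purine synthesis enzyme GART (-0.17 ± 0.19), GCLM of glutathione synthesis (-0.23 ± 0.20), the amino acid carrier SLC38A1 (0.22 ± 0.18) and SPTLC1 of sphingolipid synthesis (0.17 ± 0.15). None of them passed either. Other probe sets of these genes did not all share the sign: those of SLC38A1 gave -0.06 and 0.05, those of GCLM 0.10 and -0.19, those of SPTLC1 0.30 and -0.39, those of GART -0.15 to 0.64 and those of MTHFD2L -1.05 to 0.47. Those of ALDH1L2 gave 0.71 and 0.47, and that of SESN2 gave 0.15.

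Between the replicate numbers 11 of the 65 passed in limma, 9 higher and 2 lower on the number 2 arrays, where 3.51% and 3.74% of the brightest probe sets of all genes in the fit did so. The lists, like the members, were chosen with earlier results of these data known. These calls and those of the next paragraph are therefore descriptions, and nothing is read from their counts. Of 15 tested regulators and stress targets 5 were higher. They were DDIT4, an inhibitor of mTORC1 signalling (1.59 ± 0.13), the pseudokinase TRIB3 (0.94 ± 0.15), asparagine synthetase ASNS (0.82 ± 0.14), CEBPB, a C/EBP factor (0.68 ± 0.12), and the stress factor DDIT3 (0.51 ± 0.13). The other TRIB3 probe set gave -0.02. ASNS read 12225 and 13962 on the number 2 arrays, LPA then untreated, against 7565 and 7254 on the number 1 arrays, with limma adjusted p = 0.000706. ATF4 itself did not pass, at -0.12 ± 0.21 (limma adjusted p = 0.849), with number 2 values of 31265 and 49420.5 on either side of the number 1 values of 41079 and 44119.

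Of 16 tested genes of methionine and glutathione metabolism 3 were higher and 0 lower. CHAC1, which degrades glutathione, had signals of 402 and 393 on the number 2 arrays, against 78.0 and 122 on the number 1 arrays, a log2 difference of 2.01 ± 0.34 (limma adjusted p = 0.000624). SLC7A11, the cystine carrier, had 2587 and 2717 on them, against 1531 and 1374, and differed by 0.87 ± 0.13 (adjusted p = 0.000152), and its other probe sets gave 1.17 and 1.07. CSAD, which turns a cysteine product towards taurine, differed by 0.80 ± 0.24 (adjusted p = 0.0475), and by 0.32 at its other probe set. In folate and glycine metabolism, with 20 tested genes, the mitochondrial formyl-folate dehydrogenase ALDH1L2 was higher (0.64 ± 0.16, adjusted p = 0.0209), with 0.91 and 1.17 at its other probe sets. TYMS, thymidylate synthase, was lower (9867 and 12351 against 16330 and 17189, -0.60 ± 0.15, adjusted p = 0.0162), as was the methionine synthase MTR (-0.47 ± 0.12, adjusted p = 0.0237), and the other probe sets of these 2 genes gave -0.62 and -0.48. In serine use and transport 0 of 14 passed in limma, and 2 had an unadjusted p under 0.05, SLC38A1 (0.28 ± 0.13) and SFXN3 (-0.42 ± 0.20), followed by the serine racemase SRR (0.32 ± 0.17). Other probe sets gave 0.31 and 0.70 for SLC38A1, 0.40 and -0.37 for SFXN3, and 0.57, 0.10 and -0.59 for SRR. All 11 calls, and the 3 of member probe sets, were lost when limma's intensity trend was left out, with adjusted p of 0.491 to 0.495 for the 11 genes.

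**Figure D4:**
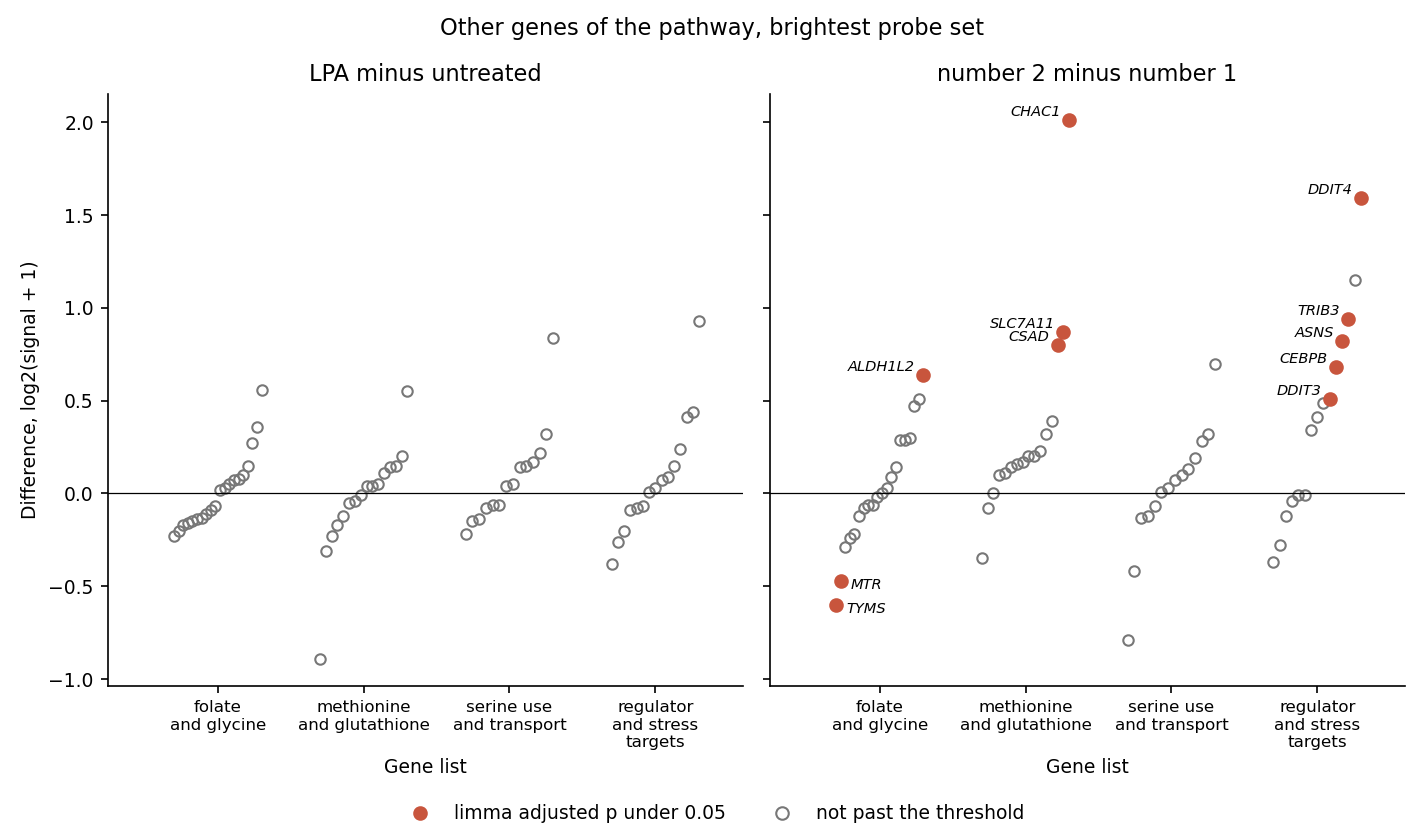
Log2 differences of the 65 other pathway genes at their brightest probe set, by list, LPA minus untreated on the left and number 2 minus number 1 on the right. Filled points passed limma's adjusted p of 0.05: 0 on the left, and 11 on the right, of which CHAC1 is highest at 2.01 and TYMS lowest at -0.60.

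Among the member probe sets that passed the filter, CBS 240517_at had the widest range over the 4 arrays, 1.85 on the log2 scale. The 5 of 13062 other genes nearest to its centred profile were AFG1L, LOC101929398, MBP, HENMT1 and ARLNC1, with root mean square distances of 0.115 to 0.158 over 4 arrays. For the brighter CTH probe set, taken up after its values were seen, they were TMEM225B, TUBB4A, ZNF891, CDKN1C and HERC2P7, at 0.039 to 0.078. CDKN1C, a cyclin-dependent kinase inhibitor, read 491 and 481 on the number 2 arrays, against 208 and 206 on the number 1 arrays. With 4 arrays and this many genes, near matches of this kind are a description only.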

How the data were processed

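The authors deposited linear intensity values, a signal for each probe set on each array. The submitters' processing notes name MAS5. No source used here gives its version, background settings or scaling target. Probe sets were named from the platform annotation: 41097 list 1 symbol, 1801 several and 11777 none. Of those with 1 symbol, 41043 were looked up by Entrez identifier and 0 symbols differed from the current reference.

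Values were taken as log2(intensity + 1), so folds of dim probe sets are smaller than those of the raw signals. They are not lower bounds, and they depend on the offset. The LPA-minus-untreated difference of CBS 240517_at was 1.17 with it and 0.81 with a pseudocount of 64. Among probe sets with 1 symbol, 24658 had a mean log2 intensity at or above the 40th percentile and were kept. LPA and untreated arrays were compared with limma 3.58.1 in R 4.3.3 (lmFit and trended eBayes). Tests were two-sided, and p-values were adjusted by Benjamini-Hochberg over the 24658, with a threshold of 0.05. Precision is limited by the number of arrays. The contrast of replicate numbers used the same fit with treatment as a term, which leaves little information on the spread. The SE is limma's moderated value.

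The members, the 4 gene lists, the tests and most alternatives were chosen with earlier results of these data known. List genes were named where they passed (up to 6 a list), otherwise by the 3 smallest p, with ATF4 and ASNS whatever their test. Alternatives were quantile normalization, a pseudocount of 64, no filter, the 60th percentile, the brightest probe set per gene, no intensity trend, the replicate number as a term of the LPA comparison, no treatment term in the contrast of numbers, and leaving out each array.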

Additional observations from a re-analysis of the deposited data

How the results depend on the processing

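In the LPA comparison the count of 0 called probe sets held under quantile normalization, the pseudocount, both filters, the brightest probe set per gene and no intensity trend, and became 0 to 1 when 1 array was left out, 1 without LPA replicate 1 and 1 without untreated replicate 2. With the replicate number as a block it became 24, of which 1 was a member, CBS 1553972_a_at. The labels do not say that the number pairs the arrays, and the deviations of same-numbered arrays from their group means correlated with r = 0.19 over probe sets, with 2 pairs only. The members' median log2 difference of 0.013 became 0.054 under quantile normalization and -0.016 with the brightest probe set per gene, and ranged from -0.153 (no untreated replicate 1) to 0.168 (no untreated replicate 2) when 1 array was left out. It was 0.142 when LPA replicate 1 was the one left out and -0.093 when it was LPA replicate 2. The ASNS difference between treatments was -0.07 as reported, 0.0036 under quantile normalization, and ranged from -0.54 to 0.41 without 1 array, and that of ALDH1L2 from -0.10 to 0.64. Over all alternatives SESN2 ranged from 0.09 to 0.78, CDO1 from -1.38 to -0.40, SQOR from 0.34 to 0.75, GCLM from -0.40 to -0.06, GART from -0.32 to -0.01, SLC38A1 from 0.06 to 0.38 and MTHFD2L from -0.23 to -0.07, and NUPR1 was 0.49 with the pseudocount of 64.

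Between the replicate numbers, 1375 called probe sets became 285 without treatment as a term, and 0 (2483 at an unadjusted p under 0.05) without the intensity trend. Called members, 3 as reported, became 5 under quantile normalization and 0 without the trend, and called list genes, 11 as reported, became 6 without treatment as a term and 0 without the trend. CSAD and ALDH1L2 did not pass under quantile normalization (adjusted p = 0.0631 and 0.0511). ATF4 changed sign there, to 0.02. Leaving out 1 array leaves no residual spread in this model, so it gave values with no test: the members' median, 0.206 as reported, ranged from 0.184 to 0.286. The CTH differences stayed between 0.93 and 1.39 over the alternatives run and those of SHMT2 between 0.14 and 0.62. The causes were not tested.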
